A study of Mus musculus with 9 samples.

Results

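Fibronectin (Fn1) and the 7 integrin genes that encode its main receptors in epithelial tumour cells (Itga5, Itgav, Itgb1, Itgb3, Itgb5, Itgb6 and Itgb8) were followed by gene symbol in RNA-seq of mouse pancreatic ductal adenocarcinoma cells taken from lungs. All 8 genes were found once each among the 24012 genes of the table, and all 8 passed the filter on low values in every comparison. The cells were labelled DTC, sorted by GFP at 5 days, or mCherryHigh and mCherryLow, both sorted at 6 weeks on GFP and on the signal of the Gstt1-mCherry construct that the cells carry. Gstt1 encodes a glutathione transferase. Each group had 3 libraries. All groups shared 1 genotype, which includes SIRT6F/F, p48-Cre and p53F/+, that is floxed Sirt6 and p53 alleles with Cre driven from the pancreatic p48 gene, so no group had another genotype. The mice had been injected through the tail vein, so the cells reached the lung through the blood. Nothing in the labels ties the libraries to different mice, and p-values then measure only the spread between these libraries, which may be technical.

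Fibronectin is a secreted glycoprotein that cells stretch into fibrils on their surface. Integrins are pairs of an alpha and a beta chain that hold such fibrils from outside and the actin cytoskeleton from inside. The α5 chain (Itga5) pairs only with β1 (Itgb1) and makes the classical fibronectin receptor, which drives fibril assembly. The αv chain (Itgav) pairs with β1, β3, β5, β6 or β8. Of these, αvβ5 is best known as a receptor for vitronectin, αvβ3 for several matrix proteins, and αvβ6 and αvβ8 for releasing active TGF-beta from its latent complex. β6 is a chain of epithelia, low in resting tissue and raised in injured epithelium and in many carcinomas.

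Values are CPM, the reads of a gene scaled to a common library total, from libraries of 643748 to 11861241 reads. Single libraries carry counting error, given where reads are few as 95% exact Poisson intervals that cover counting error only. Gstt1 followed the sort, at 60.6, 48.4 and 50.9 CPM in mCherryHigh 1, 5 and 6, against 15.1, 11.9 and 29.4 CPM in mCherryLow 1, 5 and 6. It was at 6.09, 11.2 and 7.58 CPM in DTC 1, 2 and 3.

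Cell type markers differed between groups before any integrin is considered. The 12 tumour epithelium markers, among them the ductal keratin Krt19, summed to 5382, 6094 and 469.7 CPM in DTC 1, 2 and 3, to 2313 to 6151 CPM in mCherryHigh and to 1828 to 2658 CPM in mCherryLow. DTC 3 thus stood apart, with Krt19 at 74.7 CPM, against 696 and 885 CPM in DTC 1 and 2. Krt19 did not follow the sums, since every DTC library lay below every other library. It was at 1102 to 2369 CPM in mCherryHigh and 895.5 to 1320 CPM in mCherryLow. Epcam did not follow them either, at 21.3, 4.38 and 16.2 CPM in DTC 1, 2 and 3. By mean log2 value, 5 of the 12 markers were higher in DTC than in mCherryHigh, and 7 were higher than in mCherryLow. Of the lung and blood cell lists, the 13 macrophage and monocyte markers summed to 3743 to 8925 CPM in DTC, 526.6 to 886.5 CPM in mCherryHigh and 520.8 to 903.3 CPM in mCherryLow. The 12 endothelial markers summed to 247.5 to 549.8 CPM in DTC, 55.9 to 80.8 CPM in mCherryHigh and 25.8 to 37.7 CPM in mCherryLow. The 10 alveolar epithelium markers summed to 201.7 to 528.6 CPM, 38.8 to 77.1 CPM and 26.7 to 49.1 CPM in DTC, mCherryHigh and mCherryLow. That list also holds Scgb1a1, a gene of airway club cells. The 11 fibroblast and pericyte markers summed to 123.3 to 303 CPM in DTC and 126 to 167 CPM in mCherryHigh, which overlapped, and to 52.0 to 114 CPM in mCherryLow, below every library of both. The 9 platelet and megakaryocyte markers overlapped between the groups, at 36.1 to 58.4, 20.2 to 46.0 and 11.7 to 41.6 CPM. The 9 T and NK cell markers summed to 72.1 to 346.3 CPM in DTC, 5.11 to 9.32 CPM in mCherryHigh and 1.60 to 9.75 CPM in mCherryLow, and the 7 neutrophil markers to 48.7 to 156.9, 10.4 to 20.3 and 4.51 to 11.7 CPM. In DTC no marker of any list was at 0 in all 3 libraries. In mCherryHigh the markers at 0 in all 3 were C1qb, Gp6, Cd3g, Gzma, Mpo, Sftpd and Lamp3, and in mCherryLow they were Treml1, Gp6 and Cd3e. The part of these cells in the integrin values was not tested, and in bulk RNA fewer cells of a type and less RNA per cell cannot be told apart.

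**Figure D1:**
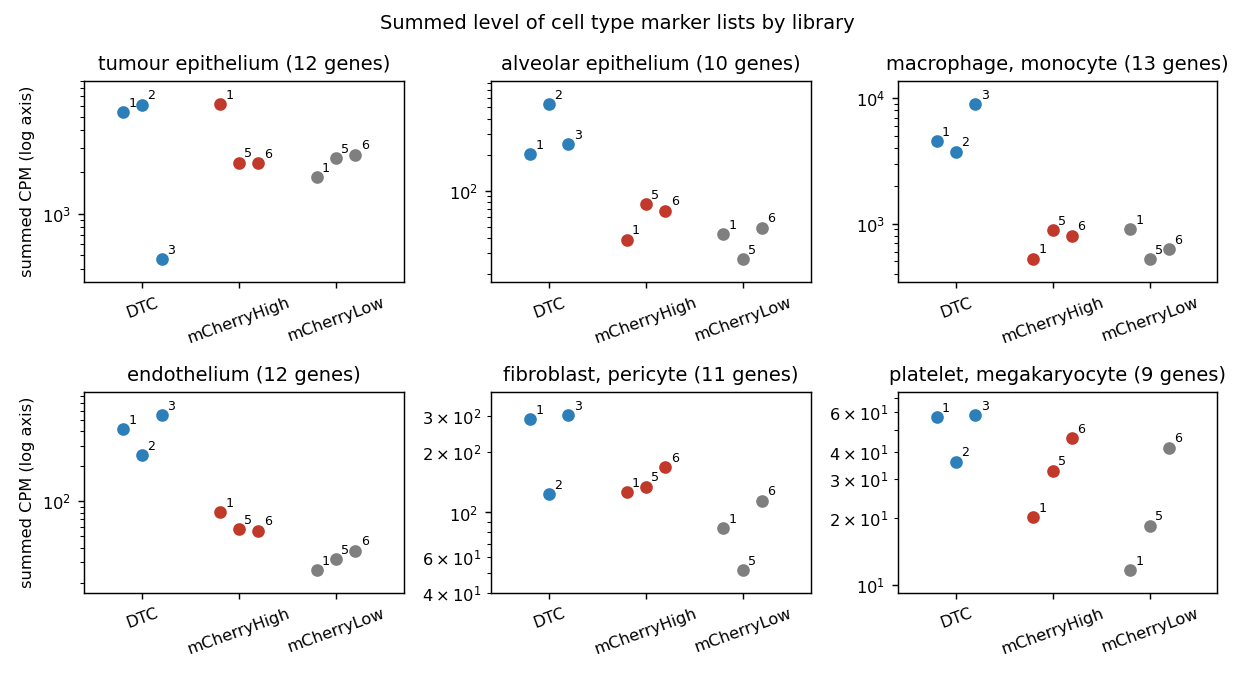
Summed CPM (log axis) of 6 cell type marker lists in each library, labelled by its number, for DTC, mCherryHigh and mCherryLow. Macrophage, endothelial and alveolar markers were higher in all 3 DTC libraries than in all 6 others, and DTC 3 had the lowest sum of tumour epithelium markers, 469.7 CPM.

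A level for genes that these cells should not use was taken from 375 olfactory receptor genes. Their 95th percentile was 23.6, 13.2 and 36.8 CPM in DTC 1, 2 and 3, 12.9, 1.22 and 1.97 CPM in mCherryHigh 1, 5 and 6, and 2.10, 1.88 and 0.868 CPM in mCherryLow 1, 5 and 6. Low values in DTC, and in mCherryHigh 1, are read against it. In DTC 3, 38 of the 375 were as high as Itga5 or higher, 90 as Itgb5 and 32 as Itgb3.

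The first comparison sets DTC, tumour cells a few days in the lung, against mCherryLow cells of tumours that had grown there for weeks. Fibronectin and the chains of its classical receptor, α5 and β1, fell in DTC, and so did β5. The epithelial chain β6 rose about 16.4-fold and β8 rose as well, while αv and β3 did not pass the test. Of the 8 genes, 2 were called higher, where 34.2% of all 18701 genes tested were, and 4 were called lower, where 8.87% of all genes were (limma, Benjamini-Hochberg adjusted over all genes tested). Of all calls 79.4% were higher in DTC, where quantile normalization gave 52.7% and median-of-ratios scaling 64.9%. Groups did not overlap for 6 of the 8, against 53.2% of all genes. The median of all genes was 0.59 higher in DTC on the log2(CPM + 1) scale used for all differences here, and relative to it the 4 lower genes stood between -1.83 and -3.09 and Itgb6 at 3.45. That shift was absent among genes with a mean of at least 10 CPM (median -0.0134) and with quantile normalization (-0.143). Values relative to 0.59 therefore depend on which genes are counted.

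**Figure D2:**
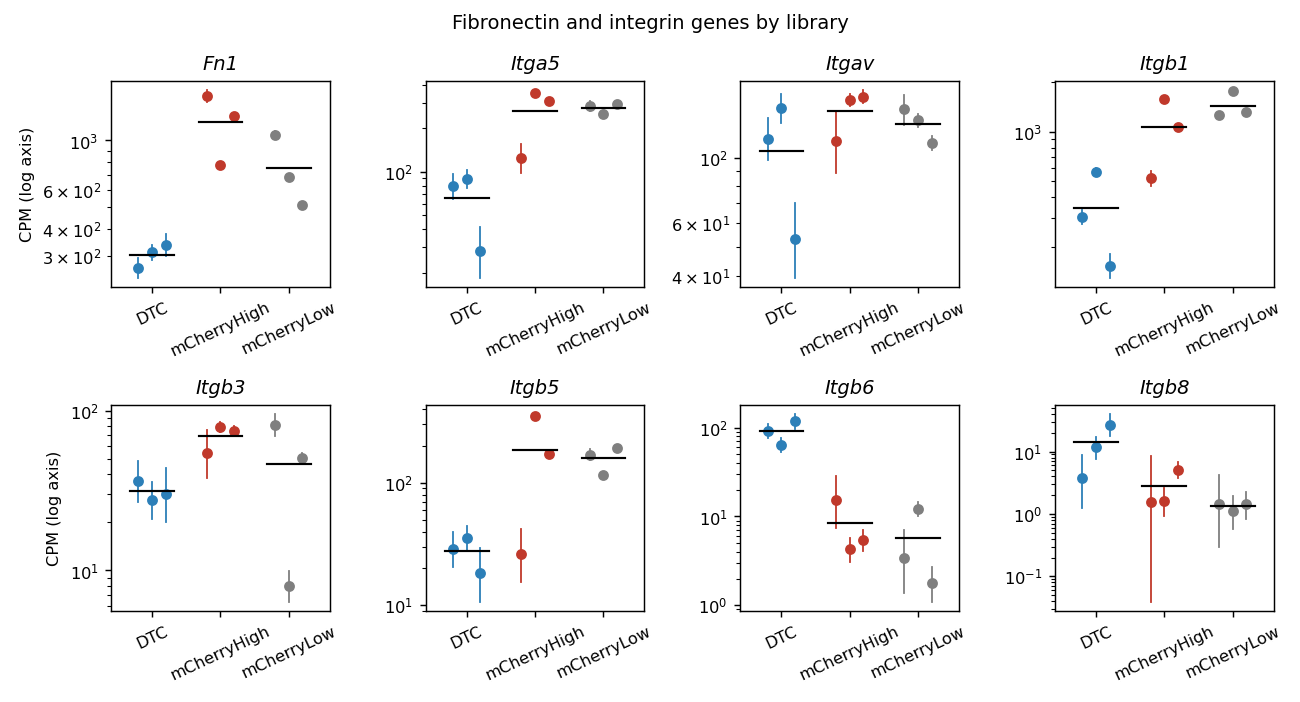
CPM (log axis) of Fn1 and the 7 integrin genes in each library of DTC, mCherryHigh and mCherryLow, with 95% exact Poisson intervals as vertical lines and the group mean as a black bar. Itgb6 lay between 64.3 and 118 CPM in DTC and at 15.5 CPM or below in the other 6 libraries, while Itga5 and Itgb1 were lower in all DTC libraries than in all mCherryLow libraries.

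Fn1 (ENSMUSG00000026193), the ligand, was at 266, 313 and 337 CPM in DTC 1, 2 and 3. It was at 1583, 776 and 1288 CPM in mCherryHigh 1, 5 and 6, and at 1057, 685 and 509.7 CPM in mCherryLow 1, 5 and 6. Every DTC library lay below every other library, while mCherryHigh and mCherryLow overlapped. The order of the means was mCherryHigh, mCherryLow and DTC, with the upper pair not apart beyond their spread. DTC averaged 305 ± 35.7 CPM against 751 ± 279 CPM in mCherryLow (SD, n = 3 each), a difference of -1.24 (SE 0.35, limma adjusted p = 0.0143). That call was lost with quantile normalization (-0.57, limma adjusted p = 0.23), without DTC 1 (-1.14, limma adjusted p = 0.0871) and without mCherryLow 1 (-0.96, limma adjusted p = 0.0944).

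Itga5 (ENSMUSG00000000555), the α chain of the classical receptor, was at 79.2, 89.2 and 28.1 CPM in DTC 1, 2 and 3. The mCherryHigh libraries 1, 5 and 6 held 124, 353 and 308 CPM, and the mCherryLow libraries 1, 5 and 6 held 284, 249.9 and 294 CPM. All DTC libraries were below all others, and mCherryHigh 1 lay between DTC and the rest. The difference of DTC minus mCherryLow was -2.21 (SE 0.44, limma adjusted p = 0.0023), a 4.64-fold fall.

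Itgb1 (ENSMUSG00000025809), the β chain shared by α5 and many other α chains, was at 304, 573 and 154 CPM in DTC 1, 2 and 3, at 522, 1593 and 1074 CPM in mCherryHigh 1, 5 and 6, and at 1265, 1759.5 and 1312 CPM in mCherryLow 1, 5 and 6. DTC lay wholly below mCherryLow, and DTC 2 was above mCherryHigh 1. The difference of DTC minus mCherryLow was -2.25 (SE 0.44, limma adjusted p = 0.00222). DTC 3, the library with the lowest sum of tumour markers, was the lowest for Itga5 and Itgb1. Without it the differences were -1.70 and -1.77 (limma adjusted p = 0.00429 and 0.00503).

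Itgav (ENSMUSG00000027087), the common partner of the other β chains, was at 116, 147 and 53.0 CPM in DTC 1, 2 and 3, at 113, 156 and 160.3 CPM in mCherryHigh 1, 5 and 6, and at 145, 133 and 112 CPM in mCherryLow 1, 5 and 6. The groups overlapped, and DTC 3 alone was low. The difference of DTC minus mCherryLow was -0.42, with a 95% interval of -1.33 to 0.49 (limma adjusted p = 0.438). Without DTC 3 it was 0.0082.

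Among the β partners of αv, Itgb5 (ENSMUSG00000022817) was at 28.9, 35.6 and 18.4 CPM in DTC 1, 2 and 3. Its mCherryHigh values for libraries 1, 5 and 6 were 26.4, 349.7 and 173 CPM, and its mCherryLow values for libraries 1, 5 and 6 were 169, 115 and 191 CPM. DTC lay wholly below mCherryLow, and mCherryHigh 1 was as low as DTC. DTC minus mCherryLow gave -2.49 (SE 0.40, limma adjusted p = 0.000871), within 1 SE of those of Itga5 and Itgb1. Itgb3 (ENSMUSG00000020689), which also serves platelets with the chain Itga2b, was at 36.5, 27.8 and 30.3 CPM in DTC 1, 2 and 3, at 54.4, 79.1 and 74.3 CPM in mCherryHigh 1, 5 and 6, and at 81.9, 7.98 and 50.2 CPM in mCherryLow 1, 5 and 6. The mCherryLow libraries spanned the values of both other groups. The difference of DTC minus mCherryLow was -0.06, with a 95% interval of -1.58 to 1.46 (limma adjusted p = 0.956).

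Itgb6 (ENSMUSG00000026971), the epithelial partner of αv, was at 91.3, 64.3 and 118 CPM in DTC 1, 2 and 3, on 120, 132 and 109 reads. It was at 15.5, 4.29 and 5.42 CPM in mCherryHigh 1, 5 and 6, and at 3.41, 12.2 and 1.77 CPM in mCherryLow 1, 5 and 6. All DTC libraries were above all others, and the mCherryHigh and mCherryLow libraries overlapped. The DTC interval nearest to the other groups was that of DTC 2, 53.8 to 76.3 CPM, and the nearest interval of another library was that of mCherryHigh 1, 7.45 to 28.6 CPM on 10 reads. The difference of DTC minus mCherryLow was 4.04 (SE 0.61, limma adjusted p = 0.000639), and it was called under all 16 alternatives run for it, between 3.24 and 4.68. No olfactory receptor gene reached Itgb6 in any DTC library. Itgb6 was highest in DTC 3, the library with the lowest sum of tumour epithelium markers. Without DTC 3 the difference was 3.83 (limma adjusted p = 0.00518). Alveolar epithelium, where β6 is also known, had its markers raised in the same libraries. DTC 2, with the lowest Itgb6 of the DTC libraries, had the highest alveolar sum, 528.6 CPM. In DTC 1 and 3 that sum was 201.7 and 243.5 CPM. The surfactant gene Sftpc was at 9.89, 175 and 7.58 CPM in DTC 1, 2 and 3. Macrophage and monocyte sums, 4535, 3743 and 8925 CPM in DTC 1, 2 and 3, had the order of Itgb6. So did the endothelial sums, 416.3, 247.5 and 549.8 CPM, and the fibroblast, platelet and T and NK cell sums. The olfactory receptor level given above, 23.6, 13.2 and 36.8 CPM, had that order as well. Neutrophil sums, 48.7, 130.1 and 156.9 CPM, did not. The part of alveolar or of any other cells in Itgb6 was not tested.

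Itgb8 (ENSMUSG00000025321), the other TGF-beta-releasing partner, was at 3.81, 11.7 and 27.1 CPM in DTC 1, 2 and 3. It was at 1.55, 1.63 and 5.11 CPM in mCherryHigh 1, 5 and 6 and at 1.46, 1.13 and 1.43 CPM in mCherryLow 1, 5 and 6. DTC lay above mCherryLow and overlapped mCherryHigh. These values rest on 5, 24 and 25 reads in DTC and on 3, 12 and 17 reads in mCherryLow. In each DTC library they were below the 95th percentile of the olfactory receptor genes, of which 212, 32 and 41 of 375 were as high or higher in DTC 1, 2 and 3. The difference of DTC minus mCherryLow was 2.36 (SE 0.68, limma adjusted p = 0.0159). The call was lost with quantile normalization (0.70, limma adjusted p = 0.521), at equal depth (2.56, limma adjusted p = 0.0818) and without DTC 3 (1.74, limma adjusted p = 0.0651).

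Start-site sequences of genes that moved in opposite directions are shown to set the gene that rose most, Itgb6, beside Itga5 and Itgb5, which fell. RefSeq (GRCm38.p6) gave the 250 bases before each start, for 6 of the 8 genes and 7 starts in all, since Itgb6 has an upstream and a downstream start. Capitals mark matches, on either strand, to GGGCGG (the GC box bound by SP1 family factors) and to CAGAC (the core of SMAD sites). TGANTCA, the AP-1 site, was searched as well.
Itgb6 upstream start, chr2:60722604-60722853, minus strand: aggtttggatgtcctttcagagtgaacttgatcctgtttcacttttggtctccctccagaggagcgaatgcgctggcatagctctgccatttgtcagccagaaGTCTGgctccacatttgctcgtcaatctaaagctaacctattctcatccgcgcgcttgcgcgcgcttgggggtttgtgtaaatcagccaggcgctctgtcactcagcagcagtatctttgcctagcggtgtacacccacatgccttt
Itgb6 downstream start, chr2:60673694-60673943, minus strand: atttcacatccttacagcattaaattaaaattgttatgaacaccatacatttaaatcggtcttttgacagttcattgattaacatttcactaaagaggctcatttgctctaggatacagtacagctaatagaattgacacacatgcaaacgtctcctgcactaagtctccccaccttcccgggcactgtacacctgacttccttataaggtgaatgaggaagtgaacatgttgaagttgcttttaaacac
Itga5, chr15:103366792-103367041, minus strand: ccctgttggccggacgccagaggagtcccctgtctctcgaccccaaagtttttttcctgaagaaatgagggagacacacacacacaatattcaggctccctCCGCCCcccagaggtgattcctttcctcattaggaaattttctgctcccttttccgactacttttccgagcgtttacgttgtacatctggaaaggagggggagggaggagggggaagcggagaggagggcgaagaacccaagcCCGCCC
Itgb5, chr16:33829415-33829664, plus strand: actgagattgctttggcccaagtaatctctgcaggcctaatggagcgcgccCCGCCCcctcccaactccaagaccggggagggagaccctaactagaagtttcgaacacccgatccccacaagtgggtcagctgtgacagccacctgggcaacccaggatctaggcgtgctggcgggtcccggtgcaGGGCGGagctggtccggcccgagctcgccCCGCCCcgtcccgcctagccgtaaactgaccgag
Itga5 held 2 GC boxes and Itgb5 held 3, and the Itgb6 starts held none, with G and C making up 55.6%, 65.2%, 52% and 38% of the Itga5, Itgb5, upstream Itgb6 and downstream Itgb6 windows. Itgb1, which also fell, held 1 GC box, and Itgb8 and Itgav held none. Itgb1 also held 3 CAGAC matches, and Itgb8 and the upstream Itgb6 window held 1 each. Itga5, Itgb5, Itgav and the downstream Itgb6 window held no CAGAC match. A GC box stood in 32.7% of the 32851 windows of this length in the table, a CAGAC match in 42.2% and an AP-1 match in 6.75%, and no window of these genes held an AP-1 match. These matches are descriptions of letters and no measure of binding.

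The comparison of DTC with mCherryHigh sets the early cells against established cells with a high reporter signal. Fibronectin, α5 and β1 were lower in DTC here too, and β6 was higher by 10.9-fold, while αv, β3, β5 and β8 did not pass the test. Of the 8 genes, 1 was called higher against 23.0% of 19700 genes tested, and 3 were called lower against 7.19% (limma, adjusted over all genes). Of all calls 76.2% were higher in DTC, where quantile normalization gave 51.3% and median-of-ratios scaling 67.8%. The groups did not overlap for 4 of the 8, Fn1, Itga5, Itgb3 and Itgb6, where 44.7% of all genes did not. This comparison and the preceding one share the DTC libraries, so their values are given side by side and not as support for each other.

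DTC averaged 305 ± 35.7 CPM of Fn1 against 1216 ± 408 CPM in mCherryHigh (SD, n = 3 each), a difference of -1.94 (SE 0.36, limma adjusted p = 0.00403). It was called under all 16 alternatives run for it, between -1.38 and -2.35. For Itga5 the difference was -2.01 (SE 0.53, limma adjusted p = 0.0164), with the call lost under quantile normalization (limma adjusted p = 0.0514), without mCherryHigh 5 (0.0552) and without DTC 3 (-1.49, limma adjusted p = 0.0518). For Itgb1 it was -1.68 (SE 0.53, limma adjusted p = 0.033), and only 9 of 16 alternatives kept the call. It was lost with a pseudocount of 0.1, with quantile normalization, at equal depth and without mCherryHigh 5, mCherryHigh 6, DTC 1 or DTC 3, at adjusted p between 0.0579 and 0.112 (limma), and without DTC 3 the difference was -1.20. Itgb6 differed by 3.44 (SE 0.55, limma adjusted p = 0.00239), called under all 16 alternatives.

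The αv partners β3, β5 and β8 were nearer to the threshold. Itgb3 averaged 31.5 ± 4.51 CPM in DTC and 69.3 ± 13.1 CPM in mCherryHigh (SD, n = 3 each), a difference of -1.10 (limma adjusted p = 0.0558). It passed under 4 of 16 alternatives, with median-of-ratios scaling, with edgeR and with DESeq2 on the recovered reads, and without mCherryHigh 1, at adjusted p between 0.0161 and 0.0426. Itgb5 differed by -2.10, with a 95% interval of -3.78 to -0.42 (limma adjusted p = 0.0581), and mCherryHigh 1, at 26.4 CPM, lay among the DTC values. It passed under 6 of 16 alternatives, and without mCherryHigh 1 the difference was -3.16 (limma adjusted p = 0.00141). Itgb8 differed by 1.79, with a 95% interval of 0.07 to 3.52 (limma adjusted p = 0.106), and Itgav by -0.55, with a 95% interval of -1.49 to 0.39 (limma adjusted p = 0.354).

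**Figure D3:**
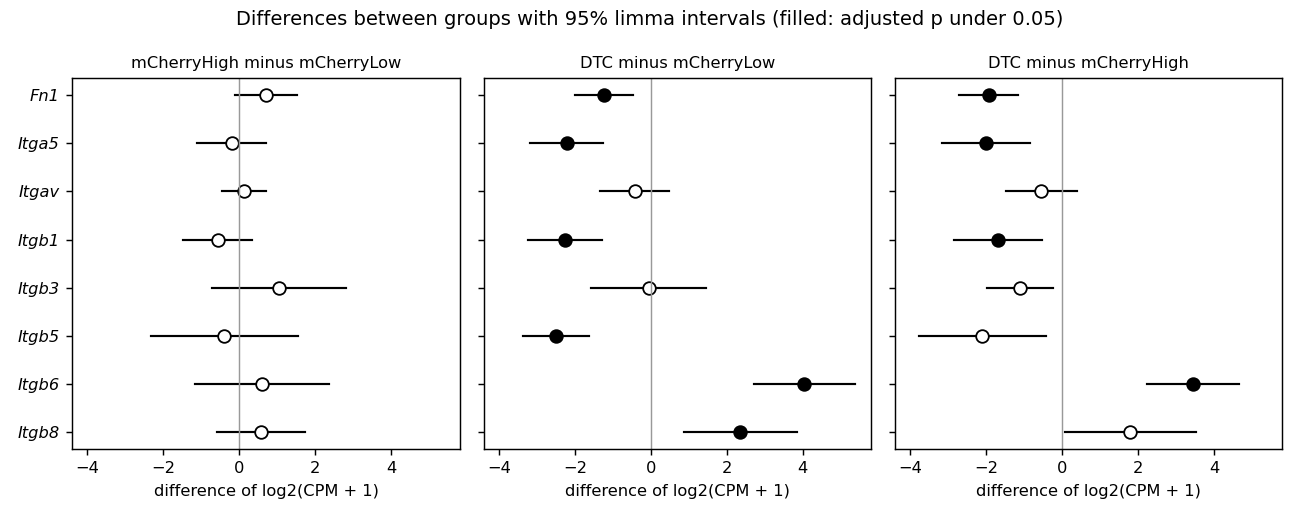
Difference of log2(CPM + 1) for the 8 genes in the 3 comparisons, with 95% limma intervals as lines and filled points where limma called the gene at an adjusted p under 0.05. Itgb6 stands at 4.04 and 3.44 in the DTC comparisons, Itgb5 at -2.49 and -2.10, and no gene is filled in mCherryHigh minus mCherryLow.

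The last comparison sets cells with a strong reporter signal, mCherryHigh, against those with a weak one, mCherryLow, at the same time after injection. None of the 8 genes passed the test, nor did any of 15437 genes in limma (0% called), where 1448 had an unadjusted p under 0.05. edgeR on the recovered reads called 0 genes and DESeq2 called 148, none of them among the 8. None of the 8 had an unadjusted limma p under 0.05. Groups did not overlap for 1 of the 8, Itgb8, against 15.9% of all genes. That gap lay between 1.55 CPM in mCherryHigh 1, on 1 read, and 1.46 CPM in mCherryLow 1, on 3 reads. The 95% exact Poisson interval of mCherryHigh 1 was 0.0393 to 8.66 CPM. Fn1 averaged 1216 ± 408 CPM in mCherryHigh and 751 ± 279 CPM in mCherryLow (SD, n = 3 each), a difference of 0.70 with a 95% interval of -0.11 to 1.51 (limma adjusted p = 0.579). The exact two-sided permutation p for Fn1 was 0.2, where the smallest that 3 libraries against 3 allow is 0.1.

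The 95% intervals of all 7 receptor chains held 0 in this comparison. Itgb1 differed by -0.57 (95% interval -1.48 to 0.34), Itga5 by -0.21 (-1.11 to 0.70) and Itgav by 0.13 (-0.45 to 0.71). Itgb3 differed by 1.04 (95% interval -0.73 to 2.82), by 0.09 without mCherryLow 5 and by 1.69 without mCherryLow 1. The difference was -0.39 for Itgb5 (95% interval -2.33 to 1.54), 0.60 for Itgb6 (-1.16 to 2.36) and 0.56 for Itgb8 (-0.59 to 1.72). The widest intervals, those of Itgb5 and Itgb3, went with 1 library far from its group, mCherryHigh 1 for Itgb5 and mCherryLow 5 for Itgb3. mCherryHigh 1, the shallowest library, had the lowest Itga5, Itgb1 and Itgb5 and the highest Itgb6 and Fn1 of its group, and without it Itga5 differed by 0.26 and Itgb5 by 0.66.

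Codes in the label descriptions group the libraries, with no statement of what they mean. Within the code shared by mCherryHigh 1 and mCherryLow 1, Fn1 differed by 0.58, Itga5 by -1.18, Itgb1 by -1.28, Itgb5 by -2.63 and Itgb6 by 1.91. Within the code shared by mCherryHigh 5, mCherryLow 5 and mCherryLow 6, Fn1 differed by 0.39, Itga5 by 0.38, Itgb1 by 0.07, Itgb5 by 1.23 and Itgb6 by -0.19. Itgav differed by -0.35 and Itgb3 by -0.58 within the first code, and by 0.35 and 1.90 within the second, and Itgb8 by 0.05 and 0.21. Within the first code all but Itgav and Itgb3 kept the sign of the pooled difference, and within the second Itga5, Itgb1, Itgb5 and Itgb6 did not keep it. mCherryHigh 6 was alone in its code. All 3 DTC libraries carry a code of their own, so a difference of DTC from the other groups cannot be told apart from one of code, time after injection or sort. Depth differed as well, with 923988 to 2052623 reads in the DTC libraries. mCherryHigh 1 and mCherryLow 1 were also shallow, at 643748 and 2051266 reads, while the other libraries held 9779098 to 11861241.

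Levels of different genes were compared per kilobase of exon, from GENCODE M21 exon lengths. By group mean Itgb1 ranked above Fn1, and both above the other 6, in all 3 groups. In mCherryHigh 1 Fn1 was above Itgb1, at 187 against 134 CPM per kb, and the mCherryHigh ranges of the pair overlapped. In DTC, Itgb1 averaged 88.2 ± 54.5 CPM per kb and Fn1 36.0 ± 4.22 CPM per kb (SD, n = 3 each), and the ranges, 39.4 to 147 for Itgb1 and 31.4 to 39.7 for Fn1, overlapped only through DTC 3. Itgb6, Itga5 and Itgav followed at 15.01 ± 4.41, 14.9 ± 7.47 and 14.9 ± 6.76 CPM per kb, not apart beyond their spread, and then Itgb5 at 8.15 ± 2.55, Itgb3 at 5.45 ± 0.780 and Itgb8 at 1.69 ± 1.41 CPM per kb. In mCherryLow, Itgb6 ranked 7 of 8, at 0.954 ± 0.923 CPM per kb, and Itgb5 ranked 4, at 46.7 ± 11.6 CPM per kb. mCherryHigh had the order of mCherryLow, with Itgb6 at 1.38 ± 1.02 CPM per kb. The order was the same with the longest coding transcript as the length.

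Shares among the αv partners do not depend on the scaling of a library. With all 5 β partners counted, Itgb1, which also serves many other α chains, held the largest share in every library, and Itgb6 held 13.9%, 6.07% and 26.7% in DTC 1, 2 and 3 and at most 1.66% in the other libraries. Of the summed level per kb of the other 4, Itgb3, Itgb5, Itgb6 and Itgb8, Itgb6 made up 49.6%, 38.8% and 58.3% in DTC 1, 2 and 3. Its share was 12.8%, 0.599% and 1.37% in mCherryHigh 1, 5 and 6, and 0.867%, 5.37% and 0.445% in mCherryLow 1, 5 and 6. Itgb6 held the largest share of these 4 chains in all 3 DTC libraries, in DTC 2 by a margin over Itgb5 too small to rank the pair, and in none of the others. Itgb5 made up 28.1%, 38.5% and 16.3% in DTC 1, 2 and 3, 39.1%, 87.6% and 78.0% in mCherryHigh 1, 5 and 6, and 77.0%, 90.6% and 86.0% in mCherryLow 1, 5 and 6. In reads, there were 30, 11.2 and 76.8 of Itgb6 for every 100 of Itgb1 in DTC 1, 2 and 3, against 2.98, 0.269 and 0.505 in mCherryHigh 1, 5 and 6 and 0.270, 0.694 and 0.135 in mCherryLow 1, 5 and 6.

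**Figure D4:**
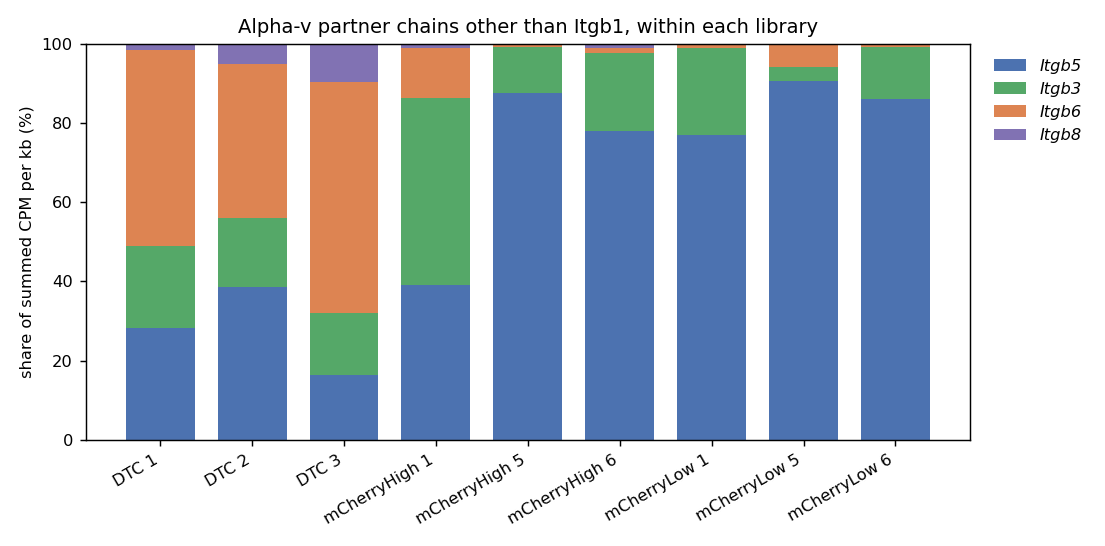
Share (%) of the summed CPM per kb of Itgb5, Itgb3, Itgb6 and Itgb8 held by each gene within each library, DTC, then mCherryHigh, then mCherryLow. Itgb6 held 38.8% to 58.3% in DTC and at most 12.8% elsewhere, and mCherryHigh 1 had the highest Itgb3 share, 47.2%.

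Genes around these receptors were counted by list. Of 30 genes that link integrins to actin and to signalling, 2 rose and 7 fell in DTC against mCherryLow, where 34.2% of all genes rose and 8.87% fell. Their median was -0.38, beside 0.59 for all genes and -0.01 for genes with a mean of at least 10 CPM. The talin Tln1, which binds β tails and switches integrins on, was at 77.8 CPM in DTC against 317 CPM in mCherryLow (-2.00, limma adjusted p = 0.00108). Zyxin, Zyx, of focal adhesions under tension, was at 79.1 CPM in DTC against 380 CPM in mCherryLow (-2.28), and the others that fell were Vcl, Pxn, Lims1, Actn4 and Flna. Fermt1, the kindlin of epithelia, rose to 69.8 CPM in DTC against 13.9 CPM in mCherryLow (2.26), and the kinase Fyn rose too. Fyn was at 21.3, 22.9 and 30.3 CPM in DTC 1, 2 and 3. In DTC 1 and 3 that was below the 95th percentile of the olfactory receptor genes, 23.6 and 36.8 CPM. Against mCherryHigh, 1 rose and 6 fell, where 23.0% of all genes rose and 7.19% fell. The median was -0.35, beside 0.55 for all genes and 0.05 for genes with a mean of at least 10 CPM. Tln1 differed by -2.38. In mCherryHigh against mCherryLow 0 of 30 passed the limma test, with a median of -0.02 beside 0.09 for all genes.

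Of 15 other α chains, 7 rose and 2 fell in DTC against mCherryLow, beside 34.2% and 8.87% of all genes. Their median was 1.46, beside 0.59 for all genes. Itga4, Itgam and Itgal, all chains of leukocyte integrins, were at 47.3, 53.3 and 67.8 CPM in DTC. In mCherryLow they were at 1.95, 1.76 and 5.8 CPM. Itgam is itself among the macrophage and monocyte markers summed above. The part of leukocytes in these values was not tested. Itga9, a chain known from several tissues, was at 56.6 CPM in DTC against 2.58 CPM in mCherryLow. The chains that fell were Itga2, the collagen receptor chain of epithelia, and the laminin receptor chain Itga7. Against mCherryHigh, 6 rose and 2 fell, beside 23.0% and 7.19% of all genes, with a median of 0.69 beside 0.55. Itga7 was at 4.53 CPM in DTC against 46.1 CPM in mCherryHigh (-3.36, limma adjusted p = 0.00506). Of the 3 other β chains, the leukocyte chain Itgb2 rose in DTC against mCherryLow, at 152 CPM against 68.9 CPM. Against mCherryHigh 1 rose, Itgb7, and 1 fell, Itgb4. Itgb2 did not pass there, at 152 CPM in DTC against 132 CPM in mCherryHigh (0.16, limma adjusted p = 0.781). Itgb4, the hemidesmosome chain that pairs with Itga6, was at 14.6 CPM in DTC against 88.8 CPM in mCherryHigh (-2.56, limma adjusted p = 0.00277).

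Other ligands of these receptors, genes of fibronectin assembly and genes of latent TGF-beta are read against the same shares, 34.2% higher and 8.87% lower against mCherryLow, and 23.0% higher and 7.19% lower against mCherryHigh. The all-gene medians are again 0.59 and 0.55, or -0.01 and 0.05 among genes with a mean of at least 10 CPM. Of 17 other ligands, 7 rose and 2 fell in DTC against mCherryLow, with a median of 0.84, and 4 rose and 3 fell against mCherryHigh, with a median of -0.59. Ctgf, a matricellular ligand, was at 24.0 CPM in DTC against 249 CPM in mCherryHigh (-3.46, limma adjusted p = 0.00146), and tenascin C, Tnc, at 54.1 CPM against 179 CPM in mCherryHigh (-1.70). The ligands Ibsp, L1cam and Dmp1, which rose, were between 7.79 and 32.5 CPM in DTC, a range that overlaps the 95th percentiles of the olfactory receptor genes. Of 16 assembly genes, 4 rose and 1 fell against mCherryLow, with a median of -0.02. Against mCherryHigh 2 rose and 1 fell, with a median of -0.33. Plaur, the urokinase receptor that binds integrins at the cell surface, fell against mCherryLow (-1.43, limma adjusted p = 0.00423). It was at 307 CPM in DTC and 828 CPM in mCherryLow. Col1a2, a collagen chain that fibroblasts make, rose to 51.9 CPM in DTC against 2.94 CPM in mCherryLow (3.77). The collagen chain Col1a1 of the same list overlapped between these groups. It was at 58.6, 11.2 and 23.8 CPM in DTC 1, 2 and 3. The mCherryLow libraries 1, 5 and 6 held 35.1, 11.4 and 22.5 CPM. Of the 9 genes of latent TGF-beta, the cargo of αvβ6 and αvβ8, 2 rose and 3 fell in DTC against mCherryLow, with a median of -1.19. Against mCherryHigh 1 rose and 3 fell, with a median of -1.06. The latency binding protein Ltbp3 was at 30.6 CPM in DTC against 113 CPM in mCherryLow (-1.95), and Tgfb1 at 107 CPM in DTC against 344 CPM in mCherryHigh (-1.67, limma adjusted p = 0.0115). Lrrc33, which presents latent TGF-beta on macrophages and microglia, rose to 42.1 CPM in DTC against 1.17 CPM in mCherryLow (4.55). In mCherryHigh against mCherryLow 0 genes of these lists passed the limma test.

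The genes most like Fn1 over the 9 libraries were sought among 10595 genes with a mean of at least 10 CPM, by the root mean square difference of the centred log2(CPM + 1) values. The nearest were the kinase Alpk1 (0.333), Ctnnb1, the adhesion and signalling protein β-catenin (0.334), the histone demethylase Phf2 (0.353), the kinase Mast3 (0.357) and Copg2, a coat protein of Golgi vesicles (0.368). Ctnnb1 was at 269.6 CPM in DTC, 880 CPM in mCherryHigh and 617 CPM in mCherryLow. None of the 7 integrin genes was as near to Fn1, with Itgav the nearest at 0.802 and Itgb6 the farthest at 2.59.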

How the data were processed

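Per the labels' protocols, total RNA came from an RNAqueous-Micro isolation, was copied with SMART-seq v4 and was made into libraries by Nextera XT. The submitters' processing notes name the build mm9. No source used here gives the aligner or the counter. The authors deposited CPM, reads of a gene scaled to the total of its library, for 9 libraries, and 0 columns were left unmatched. All values (100%) were whole multiples of 1 read within 0.01 read, so reads and totals were recovered. A count of 0 allows up to 3 reads. Within groups, Spearman correlations across genes were 0.857 to 0.921 in DTC, 0.76 to 0.937 in mCherryHigh and 0.869 to 0.922 in mCherryLow.

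A gene was tested where 3 or more of the 6 libraries compared reached 1 CPM. The test was the two-sided one of limma 3.58.1 (R 4.3.3) with its trend option, fitted to log2(CPM + 1) of the pair of groups, with p-values adjusted by Benjamini-Hochberg over every gene tested and called at 0.05. Exact permutation tests were run for each of the 8 genes only. The 8 genes, the 6 related and 8 marker lists (177 genes, 171 found, 3 of them by gene ID) and the rule for named genes (up to 4 per related list with the smallest p and at least 10 CPM in the higher group) were chosen with earlier results of these data known. Genes named beyond that rule as having passed were chosen after their values were seen. Alternatives were other pseudocounts and filters, scalings, the count models of edgeR 4.0.16 and of DESeq2 1.42.0 run on recovered reads, 1 random thinning to the shallowest depth, 1 fit of all libraries, the label number or code as a term, and leaving out each library. The procedure was tested on simulated data. Exon lengths came from GENCODE M21 and start sites from RefSeq, both on GRCm38, a later build than mm9, and coordinates are given for the start sites alone. A further element of the shared genotype is not reported here.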

Additional observations from a re-analysis of the deposited data

How the results depend on the processing

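Of 396 recomputed differences of the 8 genes, 361 kept direction and side of the threshold, 16 lost the call, 10 gained it and 9 changed sign. For mCherryHigh minus mCherryLow the sign changes were Itgav with median-of-ratios scaling (-0.0298), Itgb5 with edgeR (0.14), DESeq2 (0.13) and without mCherryHigh 1, and Itga5 without mCherryHigh 1. When a library was left out, Itgb5 ranged from -1.18 to 0.662 and Itga5 from -0.49 to 0.26. For DTC minus mCherryLow they were Itgb3 without DTC 2, mCherryLow 1 or mCherryLow 6, with a range from -1.01 to 0.592 when a library was left out, and Itgav without DTC 3, with a range from -0.717 to 0.00824. None of these values passed the test, and the cause was not tested. Itga5, Itgb1, Itgb5 and Itgb6 in DTC minus mCherryLow, and Fn1 and Itgb6 in DTC minus mCherryHigh, were called under all 16 alternatives run.

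Genes called in DTC minus mCherryLow numbered 8064 (79.4% higher), 4157 with a mean of at least 10 CPM, which tests fewer genes, 4300 with quantile normalization (52.7% higher) and 3628 to 7008 when a library was left out, with 3628 without DTC 1 and 4387 without DTC 3. With median-of-ratios scaling 64.9% were higher. In DTC minus mCherryHigh they numbered 5949 (76.2% higher), 3673 with that filter, 3150 with quantile normalization (51.3% higher) and 2538 to 6997 when a library was left out, with 2538 without DTC 1, 3265 without DTC 3, 3588 without mCherryHigh 5 and 3911 without mCherryHigh 6. Of the 8 genes, 6 were called in DTC minus mCherryLow and 5 to 6 when a library was left out. In DTC minus mCherryHigh 4 were called, 2 with quantile normalization, and 2 to 6 when a library was left out, with 2 without mCherryHigh 5 or DTC 3. In mCherryHigh minus mCherryLow DESeq2 called 148 genes (49 higher and 99 lower), and all other settings called 0. With the label number as a replicate block the count was 0 genes and Fn1 differed by 0.70 (limma adjusted p = 0.568). Same-numbered mCherryHigh and mCherryLow libraries did not deviate together (correlations across genes -0.204, -0.0234 and 0.27), and of the mCherryHigh libraries only number 6 correlated best with its own number, so the numbers were not taken as pairs. No paired analysis was possible for DTC because DTC shares only 1 number with each other group. Depth limits Itgb8 most, with 1 to 50 reads in any library.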

Other observations

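Itgb7, the β chain that lymphocytes pair with Itga4 or Itgae, varied widely between libraries of the same group, a point noticed after the values were seen. It was at 57.1, 74.5 and 30.3 CPM in DTC 1, 2 and 3, at 0, 30.7 and 3.37 CPM in mCherryHigh 1, 5 and 6, and at 52.7, 83.8 and 0.0843 CPM in mCherryLow 1, 5 and 6. The libraries with high Itgb7 included mCherryLow 1 and 5, in which T and NK cell markers summed to 9.75 and 1.60 CPM. The part of lymphocytes or of any other cells in Itgb7 was not tested. Its difference was 3.32 in DTC minus mCherryHigh (SE 1.02, limma adjusted p = 0.0313), and 1.60 in DTC minus mCherryLow (SE 1.25, limma adjusted p = 0.321).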
